A study of Homo sapiens with 17 samples.

Results

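The 10 genes described here are known targets of SOX2 in pluripotent and neural stem cells: POU5F1, NANOG, LIN28B, SALL4, FGF4, UTF1, NES, PAX6, OTX2 and POU3F2. They were set against all 19974 protein-coding genes of chromosomes 1 to 22 and X. For each gene, the peaks whose summit lay within 100 kb of its RefSeq span on GRCh38 were collected from 10 peak lists. The question was whether SOX2, or SOX2 carrying a piece of FOXA2, occupied these genes in a cell type that is neither pluripotent nor neural.

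The cells were U2OS, a human osteosarcoma line, in which a Flag-tagged factor was switched on by doxycycline (500 ng/ml, 4 days, by the treatment label) from a Tet-on construct and mapped by Flag ChIP-seq. The 8 groups expressed SOX2, SOX2 fused to the CTD of FOXA2 (the fusion), and FOXA1, FOXA2 and FOXA3, each at full length and with the CTD deleted. CTD stands for the C-terminal domain. Each group had 2 biological replicates joined into 1 combined list, and 1 input sample completed the 17 samples. Peaks called in replicate 1 by itself were available in addition for SOX2 and for the fusion (the first-replicate lists). All factors were induced in this 1 cell line, and no uninduced ChIP was analysed here. With 1 combined list per group there was no spread between replicates to test against, so counts and shares are given with intervals that cover counting error only.

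SOX2 is a transcription factor of the HMG-box family. In embryonic stem cells it binds composite elements together with the POU factor OCT4, the product of POU5F1, and the pair regulates NANOG, FGF4, UTF1 and their own genes. In neural progenitors it acts with other POU factors, among them the product of POU3F2, at enhancers such as those of NES and PAX6. FOXA proteins are forkhead factors of endoderm, able like SOX2 to bind sites in closed chromatin.

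The promoter sequences that bear on the result come from the NANOG neighbourhood and from LIN28B. They are the 250 bases before the annotated start in the RefSeq promoter table (GRCh38.p14), written 5′ to 3′ on the strand of the gene. Capitals mark matches on either strand to a SOX motif, ACAANG, or to an octamer-SOX composite, TTGTNATGC, the arrangement that OCT4 and SOX2 are known to bind together. NANOG is shown because its promoter holds the composite and had no peak, GDF3 because it is where a SOX2 and a fusion peak in the NANOG window fell, and LIN28B because the fusion had a peak close by in its first replicate.
NANOG, chr12:7789152-7789401, + strand: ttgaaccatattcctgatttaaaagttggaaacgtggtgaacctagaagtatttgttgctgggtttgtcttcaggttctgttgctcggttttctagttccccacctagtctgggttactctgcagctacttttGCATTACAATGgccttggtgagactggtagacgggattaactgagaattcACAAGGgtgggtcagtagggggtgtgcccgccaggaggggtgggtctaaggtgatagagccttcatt
GDF3, chr12:7695776-7696025, - strand: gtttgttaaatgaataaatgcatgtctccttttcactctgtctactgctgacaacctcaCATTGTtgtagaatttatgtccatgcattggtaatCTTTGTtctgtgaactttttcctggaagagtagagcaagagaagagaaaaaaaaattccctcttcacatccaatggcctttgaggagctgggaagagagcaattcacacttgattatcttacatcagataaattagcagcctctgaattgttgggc
LIN28B, chr6:104956857-104957106, + strand: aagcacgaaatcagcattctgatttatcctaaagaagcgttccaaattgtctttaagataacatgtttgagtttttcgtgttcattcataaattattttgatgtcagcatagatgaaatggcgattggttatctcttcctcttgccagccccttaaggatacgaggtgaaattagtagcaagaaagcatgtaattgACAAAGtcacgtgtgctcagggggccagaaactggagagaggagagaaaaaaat

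In the NANOG sequence the composite GCATTACAA, which matches the motif on the minus strand, covers bases 134 to 142 counted from the first base shown, and it overlaps the SOX match ACAATG at bases 139 to 144. A second SOX match, ACAAGG, lies at bases 184 to 189. The composite was found in 0.601% of the 35116 promoter windows of the table, each running from 250 bases before a start to 50 after it. The shorter SOX motif was found in 35.5% of them, so a match to it is common. The GDF3 sequence holds 2 SOX matches, CATTGT at bases 60 to 65 and CTTTGT at bases 95 to 100, and the LIN28B sequence holds ACAAAG at bases 197 to 202. A match describes the letters only and is not evidence of binding.

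The combined SOX2 list had no peak within 100 kb of any of the 10 genes. Among all protein-coding genes, 1.46% had a SOX2 peak by the same rule. A count of 0 of 10 allows a share of up to 30.0% (3 counts of the total, for counting error only), and its Wilson 95% interval ran from 0 to 27.8%. The 0 is therefore near the background. The SOX2 list holds only 1375 peaks. At its density over the genome, about 1.01 would fall in the 2.24 Mb of the members' windows. That figure takes the peaks as evenly spread, which they were not. Chromosome 6, with POU5F1, LIN28B and POU3F2, had 0.0117 SOX2 peaks per Mb, against 0.451 over the genome. With peaks so few and uneven, the 0 says little about binding at these genes. The nearest SOX2 summit to a member lay 555 kb from UTF1, a chromatin-associated protein of undifferentiated embryonic cells. NANOG, the homeobox factor of the pluripotency core, was 1318 kb from its nearest SOX2 summit, and SALL4, a zinc finger factor of embryonic stem cells, was 1984 kb away. Distances of the other members ran from 3465 kb for OTX2 to 88082 kb for LIN28B. The members' median of 14909 kb compares with 13169 kb over the 17675 protein-coding genes on chromosomes with a SOX2 peak. Over the whole combined SOX2 list, only 19.3% of peaks were overlapped by the first-replicate SOX2 list, and 78.5% by a FOXA list.

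The fusion had a peak near 3 of the 10 genes, NANOG, SALL4 and UTF1, with 1 peak each. This is 30.0% of the members (Wilson 95% interval 10.8% to 60.3%), against 35.5% of all protein-coding genes. POU5F1, LIN28B, FGF4, NES, PAX6, OTX2 and POU3F2 had none. The 3 peaks correspond to 1.34 peaks per Mb of the members' windows, with a Poisson 95% interval from 0.276 to 3.91, and the whole list has 2.59 per Mb. The members' interval includes the density of the whole list.

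**Figure D1:**
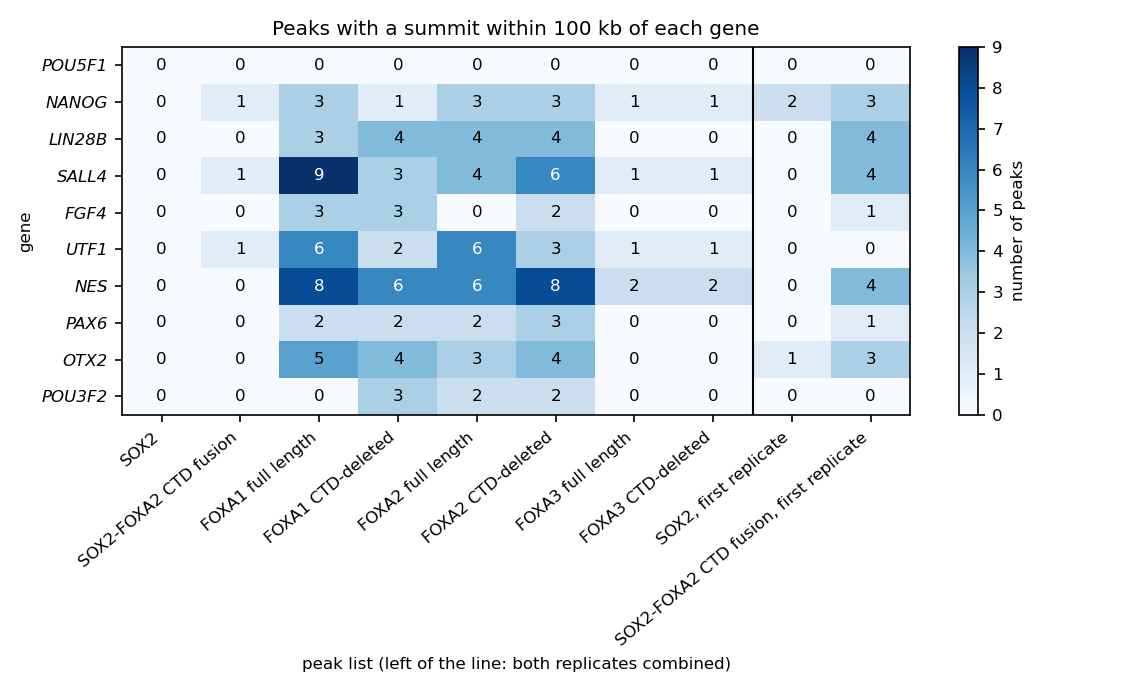
Number of peaks with a summit within 100 kb of each of the 10 genes (rows) in each list (columns), printed in the cells and shaded from 0 to 9. The POU5F1 row and the SOX2 column are 0 throughout, the fusion column holds 3 single peaks, and the FOXA1 and FOXA2 columns hold most of the peaks.

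Each fusion peak near a member lay closer to, or inside, another gene. The NANOG peak, chr12:7695618-7696288, was 93.4 kb from NANOG and 237 bp from GDF3, a growth factor of the TGF-beta family that pluripotent cells express. Its summit lay 237 bp before the GDF3 start, so that the peak covers the GDF3 sequence printed above. The SALL4 peak, chr20:51766401-51766769, was 15.8 kb from SALL4 and lay in ATP9A, and the UTF1 peak, chr10:133191560-133192169, was 38.3 kb from UTF1 and lay in KNDC1. The member was the nearest protein-coding gene of 0 of the 3 peaks. Among all protein-coding genes, 15.3% were the nearest one of a fusion peak within 100 kb, against 35.5% with a peak in that distance. The absence of members cannot be told from that share.

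By the authors' values, 1 of these peaks was stronger and 2 were weaker than the list's median strength of 2.98. A peak carries a −log10 p in each replicate, and the lower of both is called its strength here. It also carries an irreproducible discovery rate (IDR). This is low for peaks that rank high in both replicates and rises towards 1 for peaks that are weak or differ between them. The NANOG peak had a −log10 p of 3.29 and 5.90 in the 2 replicates, an IDR of 0.584 and rank 2073 of 7895 by strength. The SALL4 peak had 2.64 and 3.57, an IDR of 0.771 and rank 4925. The UTF1 peak had 2.41 and 4.27, an IDR of 0.758 and rank 7135. The fusion list reaches an IDR of 0.920 where the SOX2 list ends at 0.100, so all 3 would be absent from a fusion list that ended where the SOX2 list does. At an IDR of at most 0.01 the fusion list had 0 members with a peak, and its share of all protein-coding genes fell to 0.100%.

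None of the 3 fusion peaks was overlapped by a peak of the SOX2 list or of any of the 6 FOXA lists (0 of 3, Wilson 95% interval 0 to 56.1%). Over the whole fusion list, 13.6% of peaks were overlapped by SOX2 and 37.7% by a FOXA list. The SALL4 peak came nearest to FOXA binding, with 435 bp between it and a FOXA2 CTD-deleted peak at chr20:51767204-51768211. For NANOG that gap was 15.5 kb and for UTF1 34.1 kb. Only the NANOG peak, at the GDF3 start, was also present in the first replicate's fusion list. This is 1 of 3 (Wilson 95% interval 6.15% to 79.2%), against 55.1% over the whole fusion list.

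**Figure D2:**
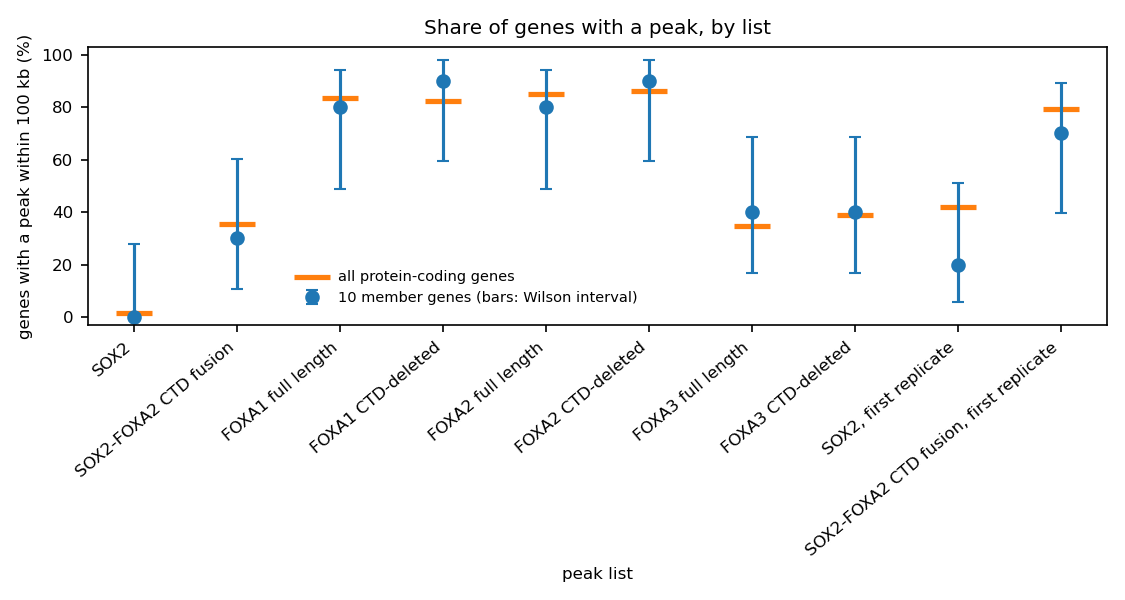
Percent of the 10 genes with a peak within 100 kb (points, with Wilson 95% intervals) and of all protein-coding genes (orange bars) for each list. The background lies inside the members' interval in all 10 lists, including SOX2 with 0 of 10.

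The first-replicate lists are longer and less strict, and they placed more peaks near the members. SOX2 had a peak near 2 of 10 members, NANOG with 2 peaks and OTX2 with 1, against 42.1% of all protein-coding genes (members 20.0%, Wilson 95% interval 5.67% to 51.0%). The fusion had a peak near 7 of 10, against 79.3% of all protein-coding genes (members 70.0%, interval 39.7% to 89.2%). POU5F1, UTF1 and POU3F2 were the members without one. Neither share exceeded its background. Per Mb, the SOX2 first replicate had 0.294 times the density of its whole list near the members (Poisson 95% interval 0.0607 to 0.860) and the fusion first replicate 0.639 times (0.391 to 0.987), and both intervals lie below 1. With a 50 kb window both intervals included 1 (0.0429 to 1.28 and 0.317 to 1.14), as they did at a p of at most 1e-05 (0 to 2.73 and 0.231 to 2.17). Without the POU5F1 window that of the fusion included 1 (0.704, 0.430 to 1.09), and that of SOX2 stayed below 1 (0.324, 0.0668 to 0.947).

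The strongest SOX2 peak of its first replicate near a member was the one at the GDF3 start, chr12:7695809-7696030, with a summit 128 bp before that start. Its fold enrichment over background was 4.12, its −log10 p 4.90 and its −log10 q 0.757, which is short of a q of 0.05. The fusion's first replicate had a peak over the same promoter, chr12:7695860-7696252, with its summit 243 bp before the start, a fold enrichment of 4.61 and a −log10 q of 2.10. All 3 peaks reach the upstream sequence printed for GDF3, while the printed NANOG sequence, with its octamer-SOX composite, had none. The second SOX2 peak of the NANOG window, chr12:7844281-7844515, lay inside SLC2A14 and had a fold enrichment of 2.91 and a −log10 q of 0.

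OTX2 encodes a homeobox factor of the anterior brain that is also active in the epiblast. Its SOX2 peak, chr14:56829177-56829499, was 18.9 kb from the gene, which was also the nearest protein-coding gene. The fold enrichment was 3.63 and the −log10 q was 0. The fusion's first replicate had an overlapping peak, chr14:56829299-56829689, with a fold enrichment of 3.01, and a FOXA2 full-length peak, chr14:56828441-56829460, spanned part of both. Neither the SOX2 nor the fusion peak was present in the combined list of its factor. Over the whole first-replicate lists, only 1.94% of SOX2 peaks and 10.5% of fusion peaks were.

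LIN28B, an RNA-binding protein that blocks maturation of the let-7 microRNAs, had the strongest fusion peaks of that replicate near any member. The first, chr6:104916093-104916692, lay 20.8 kb from the gene, with a fold enrichment of 5.52, a −log10 q of 3.66 and rank 1784 of 42705. The second, chr6:104957202-104957657, lay inside LIN28B, with a fold enrichment of 5.12 and a −log10 q of 3.24. It began 46 bp from the nearer of the 2 LIN28B promoter windows, whose upstream bases are printed above. That window was chosen for printing by its nearness to a peak, and the other was 16188 bp away. FGF4, a growth factor whose enhancer is a classical SOX2 and OCT4 target, had 1 peak at chr11:69736849-69737380, 33.9 kb away, with a fold enrichment of 4.61 and a −log10 q of 2.10. None of these 3 was in the combined fusion list, and none was overlapped by a FOXA list. Over the whole first-replicate fusion list these shares were also low, 10.5% and 19.3%.

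In that replicate the fusion's 4 peaks at SALL4 had fold enrichments from 2.53 to 3.04, and 2 of them lay inside the gene. NES, which encodes the intermediate filament protein nestin of neural progenitors, also had 4, all 59.9 kb or more away, with fold enrichments from 2.32 to 3.69. PAX6, the paired-box factor of eye and forebrain, had 1 with 2.55. A q of at most 0.05 left 3 of 10 members with a fusion peak, NANOG, LIN28B and FGF4, against 33.4% of all protein-coding genes. It left no member with a SOX2 peak, against 6.96%. Neither count can be told from its background. Of the 3 SOX2 peaks near members, 2 were overlapped by the fusion's first replicate, which is 66.7% (Wilson 95% interval 20.8% to 93.9%) against 74.8% over the whole list. In the other direction it was 2 of 20, or 10.0% (2.79% to 30.1%), against 24.3%.

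**Figure D3:**
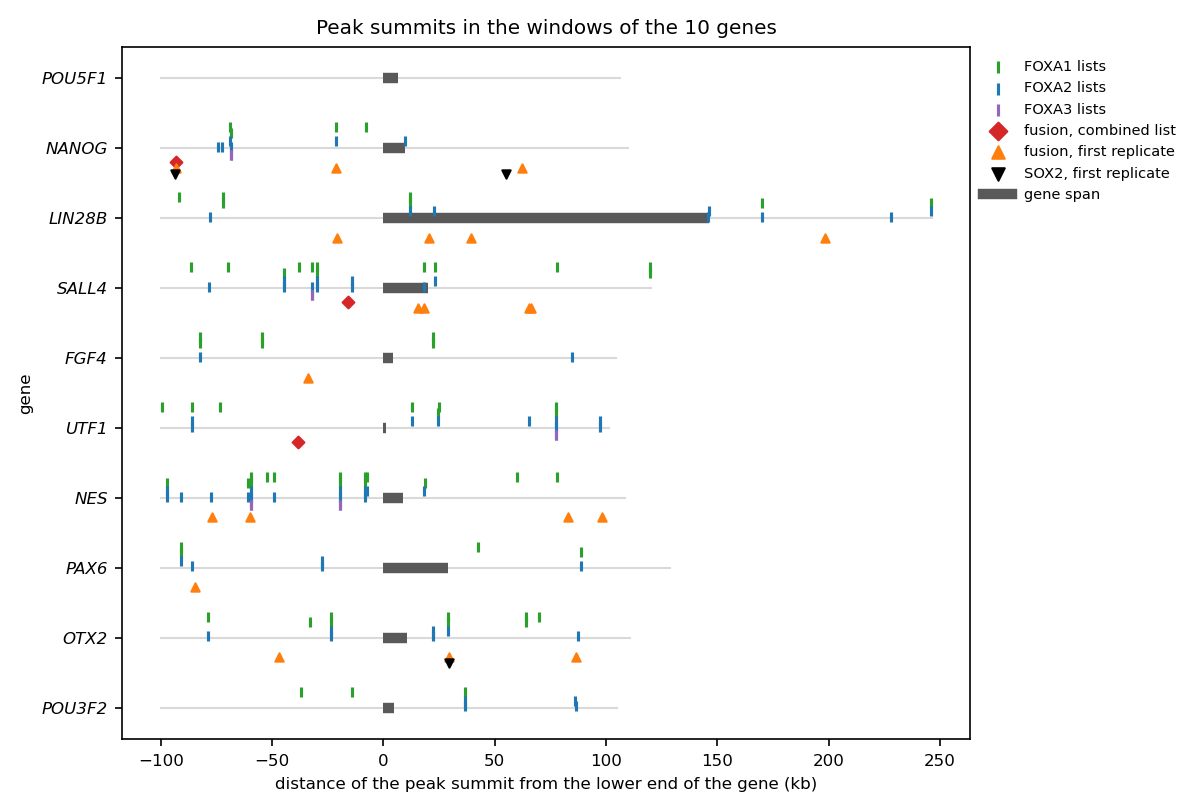
Position of each peak summit in kb from the lower end of the gene, for the 10 genes; grey lines are the searched windows, dark bars the gene spans, and ticks the FOXA lists. The combined fusion list has 1 diamond each at NANOG, SALL4 and UTF1, all outside the gene, and SOX2 appears only as 3 first-replicate triangles at NANOG and OTX2.

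The FOXA lists, made in the same cells by the same induction, serve as a comparison. FOXA1 at full length had a peak near 8 of 10 members, against 83.4% of all protein-coding genes, and after CTD deletion near 9 of 10, against 82.3%. FOXA2 at full length had a peak near 8 of 10, against 85.0%, and after CTD deletion near 9 of 10, against 86.4%. Both FOXA3 lists, which are much shorter, had a peak near 4 of 10, against 34.7% at full length and 38.9% after CTD deletion. None of these shares differed from its background by more than its counting error, and the members' median number of peaks, 3 in each FOXA1 and FOXA2 list and 0 in each FOXA3 list, was that of all protein-coding genes. Peak density near the members relative to the whole list ran from 0.755 in FOXA1 CTD-deleted (Poisson 95% interval 0.502 to 1.09) to 1.42 in FOXA1 full length (1.01 to 1.94). The last of these was the only FOXA ratio whose interval did not include 1. Its interval did include 1 with a 50 kb window (1.18, 0.700 to 1.87) and at an IDR of at most 0.01 (1.59, 0.432 to 4.06). It also did at a p of at most 1e-05 (1.10, 0.501 to 2.08) and among the strongest peaks (2.99, 0.616 to 8.73). Without the POU5F1 window it still lay above 1 (1.56, 1.11 to 2.13).

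Peaks of the 6 FOXA lists near the members merged into 70 sites, 31 of them in 1 list and 39 in 2 or more. Of these, 4 sites were in all 6 lists. The first lay in the NANOG window at chr12:7719913-7721573, beside DPPA3, a maternal and germ cell factor. The second lay in the UTF1 window at chr10:133307629-133308649, in TUBGCP2. The other 2 lay in the NES window, at chr1:156608975-156609490 in HAPLN2 and at chr1:156648889-156650132 in BCAN, both genes of brain extracellular matrix. The 2 FOXA3 lists hold identical rows for all 5 of their peaks near members. They do not count as separate measurements at these sites. The shares of sites by number of lists were not computed over the genome, so these counts have no background.

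The strongest FOXA peak near each member was taken as the one with the highest strength over the 6 lists, although strength depends on the unknown depth of each library. UTF1 had the highest, a FOXA1 full-length peak at chr10:133156030-133157453 with a −log10 p of 13.2 and 32.3 in the 2 replicates and rank 498 of 37532, 73.3 kb from the gene. NANOG followed with a FOXA1 full-length peak of strength 11.3 at chr12:7720272-7721573, 68.8 kb away. The NES peak, FOXA1 CTD-deleted at chr1:156648889-156649409, also had a strength of 11.3 and lay 19.6 kb away. These 3 genes and SALL4 were the members with a peak in every FOXA list.

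SALL4 had its strongest peak, 8.71, in the FOXA3 CTD-deleted list at chr20:51749957-51750778, in ATP9A and 32.0 kb from SALL4, and the FOXA3 full-length list holds the identical peak. The strongest OTX2 peak was 6.31 in FOXA1 full length at chr14:56863609-56864490, 53.5 kb away, and OTX2 was its nearest protein-coding gene. POU3F2, the POU factor of neural progenitors, had its strongest peak, 5.41, in FOXA1 CTD-deleted at chr6:98871065-98871674, inside FBXL4 and 31.8 kb from POU3F2. PAX6 had 4.99 in the same list at chr11:31697801-31698403, 90.8 kb away and inside ELP4, a gene known to harbour PAX6 enhancers. LIN28B had 4.44 in that list at chr6:105182745-105183415, 99.7 kb away. FGF4 had 4.33 there at chr11:69687996-69689163, 82.4 kb away and nearer to FGF19. Of these 9 peaks, only the OTX2 one had the member as its nearest protein-coding gene. The same share for the strongest peaks near all protein-coding genes was not computed, so this count has no background.

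Summits inside a member were found for 2 of 10 genes in FOXA1 full length, 1 in FOXA1 CTD-deleted, 1 in FOXA2 full length and 2 in FOXA2 CTD-deleted, where 32.8%, 34.1%, 37.3% and 37.2% of all protein-coding genes held one. LIN28B, whose span is the longest, held 6 peak summits of the FOXA lists, with strengths from 1.72 to 3.23. SALL4 held 2, of strength 3.56 in FOXA1 full length and 2.48 in FOXA2 CTD-deleted. A FOXA2 full-length peak at chr12:7799052-7799441 had its summit 0.110 kb beyond the end of the NANOG span, with a strength of 1.71 and rank 34740 of 45076. The strongest peak within 10 kb of a member was a FOXA1 CTD-deleted peak at chr1:156687129-156687467, 9.90 kb from NES, which was its nearest protein-coding gene. It had a strength of 9.59 and rank 3729 of 50539. Its IDR of 0.00391 was the lowest value near any member and was shared by peaks of other strengths, so it does not set this peak apart. Members other than LIN28B and SALL4 held no summit in any combined list.

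The lists of FOXA1 and FOXA2 with and without the CTD shared part of their peaks near the members. Of the 39 FOXA1 full-length peaks near members, 17 were overlapped by a CTD-deleted peak (43.6%, Wilson 95% interval 29.3% to 59.0%), against 56.0% over the whole list. In reverse it was 17 of 28 (60.7%, 42.4% to 76.4%), against 41.7%. For FOXA2 it was 17 of 30 full-length peaks (56.7%, 39.2% to 72.6%, whole list 51.3%) and 17 of 35 CTD-deleted peaks (48.6%, 33.0% to 64.4%, whole list 43.2%). SALL4 had 9 peaks in the FOXA1 full-length list and 3 after deletion, and UTF1 had 6 and 2. POU3F2 went the other way, with 0 at full length and 3 after deletion. The IDR limits of these lists differ (0.200 and 0.0501 for FOXA1, 0.351 and 0.250 for FOXA2), so differences in number cannot be assigned to the CTD. With the FOXA1 full-length list ended at an IDR of 0.0501, the overlap of its peaks near members was 70.0% and the reverse 25.0%.

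For FOXA3 all 5 full-length peaks near members were also in the CTD-deleted list, row for row. The 2 lists hold 5012 identical rows, 81.8% of the 6130 in the full-length list. The 5 peaks are therefore not separate measurements of the 2 proteins, and without the shared rows the full-length list had 0 members with a peak, against 2.28% of all protein-coding genes.

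**Figure D4:**
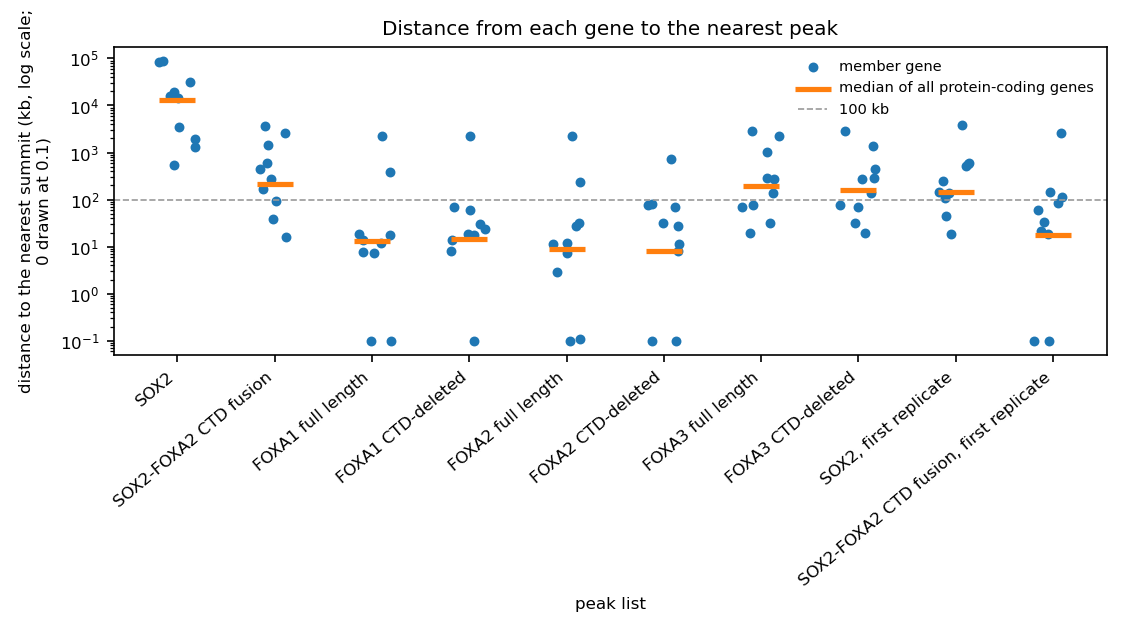
Distance in kb (log axis, 0 drawn at 0.1) from each of the 10 genes to the nearest summit of each list, with the median of all protein-coding genes as an orange bar. For SOX2 every member lies beyond 100 kb, from 555 kb upward, and in the FOXA1 and FOXA2 lists most lie within it.

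POU5F1 was the only member with no peak within 100 kb in any of the 10 lists. It lies at chr6:31164337-31170682, in the major histocompatibility region. The nearest summit was 738 kb away in FOXA2 CTD-deleted, 2257 kb in FOXA1 full length and 2611 kb in the fusion list. In FOXA1 full length no peak fell between 28443507 and 33427621 on chromosome 6, a stretch of 4.98 Mb in which 64.4 peaks would be expected at the list's density on that chromosome. The stretch around POU5F1 was 5.08 Mb in FOXA1 CTD-deleted, 4.98 Mb in FOXA2 full length and 3.51 Mb in FOXA2 CTD-deleted, where 95.0, 75.8 and 63.9 peaks would be expected.

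Most neighbouring genes also lacked peaks, and the first-replicate lists had a gap there too. It spanned 5.24 Mb in the fusion's first replicate, with 81.6 peaks expected, and 9.14 Mb in that of SOX2, with 37.4 expected. The FOXA1 full-length stretch holds 170 protein-coding genes, of which 147 had no peak in any of the 8 combined lists, and 1119 genes (5.60%) had none genome-wide. Alternate contigs of chromosome 6 carried peaks in the same lists, 14 in FOXA1 full length, 23 in FOXA1 CTD-deleted, 22 in FOXA2 full length and 27 in FOXA2 CTD-deleted. On the alternate contigs GL000250 to GL000256, which hold the other haplotypes of the major histocompatibility region, these lists had 1, 1, 1 and 5 peaks. The part of read mapping to these contigs in the gap was not tested. The 0 at POU5F1 is part of this wider gap, whose cause was not tested, and cannot be read as absence of binding at the gene.

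**Figure D5:**
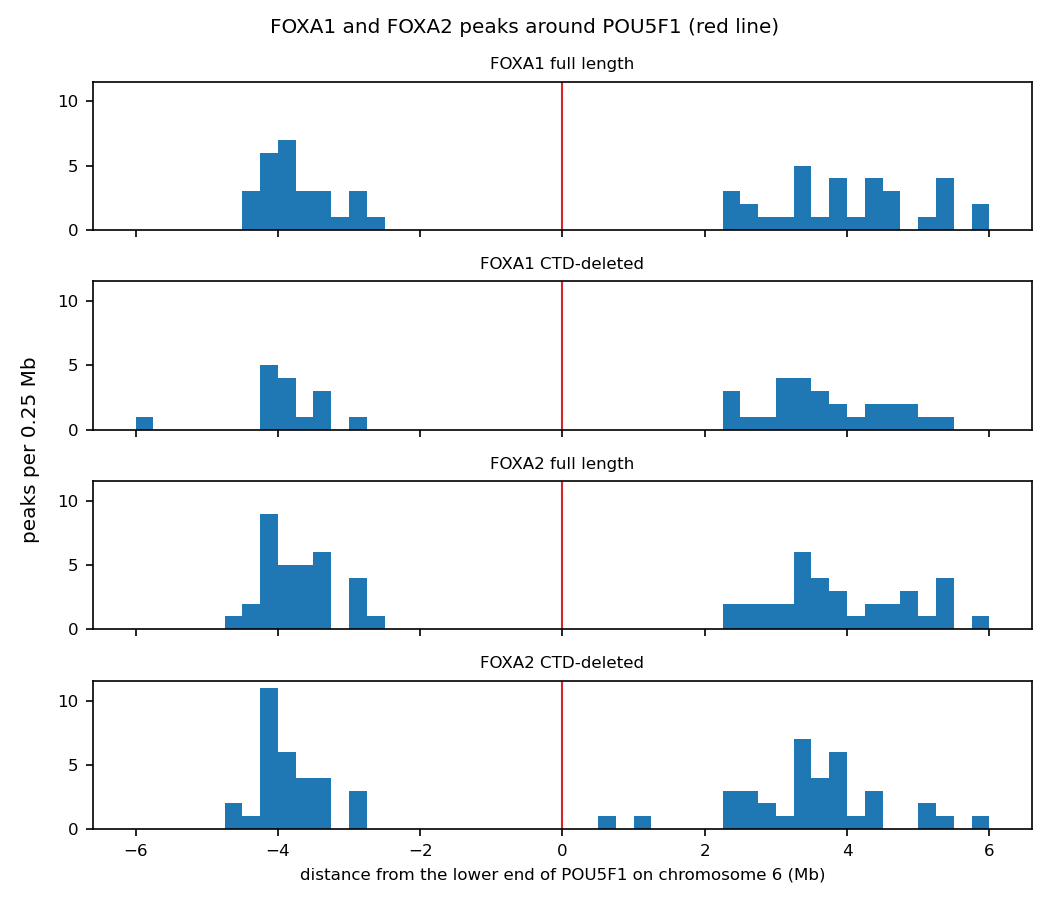
Peaks per 0.25 Mb around POU5F1 (red line; distance from its lower end in Mb) in the 4 FOXA1 and FOXA2 lists. Counts drop to 0 on both sides of the gene, except for single peaks between the gene and 2 Mb in FOXA2 CTD-deleted, and return beyond the gap.

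No promoter window of a member was overlapped by any peak of any list. Over all promoter windows of the table the share was 15.8% for the 10 lists together, and by list it ran from 0.0940% for SOX2 and 2.76% for the fusion to 6.16% for FOXA1 full length. The table held 17 windows for 7 members, 9 of them of PAX6, so 0 is not set apart from this background. POU5F1, SALL4 and FGF4 were not matched in it. A SOX match was present in 7 of the 17 windows and in 4 of the 7 genes, a forkhead match (TGTTTNC) in 3 windows and 2 genes, the composite in 1 window and the octamer alone (ATGCNAAT) in none. Over all promoter windows the forkhead motif was found in 18.0% and the octamer in 2.97%. The nearest peak to the NANOG window with the composite was a FOXA1 full-length peak with 7284 bp between them.

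Across the 8 combined lists the members fell into 6 patterns of presence. NANOG, SALL4 and UTF1 had a peak in the fusion list and all 6 FOXA lists, as did 3341 protein-coding genes (16.7%). LIN28B, PAX6 and OTX2 had peaks in the 4 FOXA1 and FOXA2 lists only, as did 4505 genes (22.6%), and NES added both FOXA3 lists, as did 2871 (14.4%). FGF4 lacked FOXA2 full length, a pattern of 316 genes (1.58%), and POU3F2 lacked FOXA1 full length, a pattern of 541 genes (2.71%). Among 46 further genes of the SOX2 network, those with the NANOG pattern were NODAL, JARID2, GDF3, MSI1, NOTCH1 and GLI3. Those with the LIN28B pattern included KLF4, ESRRB, ZFP42, DPPA2, DPPA4, LEFTY1, SALL1, TERT, SIX3, LHX2, HESX1 and HES1. LEFTY2, SOX21, JAG1, GLI2 and FABP7 had the NES pattern, and PROM1 had that of FGF4. The windows of GDF3 and NANOG overlap and share the fusion peak at the GDF3 start, so the likeness of these neighbours is not independent.

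These 46 genes were 20 pluripotency genes and 26 neural genes. SOX2 had a peak near 1 of the 20 (5.00%) and near 1 of the 26 (3.85%), against 1.46% of all protein-coding genes. With 1 gene in each set, neither share can be told from that background. The pluripotency gene was CRIPTO (TDGF1), a co-receptor of NODAL, with a peak at chr3:46488658-46489021 that was 85.7 kb away, nearest to LTF and ranked 1308 of 1375. The neural gene was SOX1, a close relative of SOX2, with a peak at chr13:112014897-112015187, 52.1 kb away, for which SOX1 was the nearest protein-coding gene. Its −log10 p was 3.94 and 6.95, its IDR 0.0229 and its rank 1071. The fusion list had a peak at the same place, chr13:112014852-112015281, but a weak one, with a strength of 2.41, an IDR of 0.701 and rank 7380 of 7895. Its other peaks near SOX1 also had a strength of 2.41, and the closest summit lay 1.07 kb from the gene.

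The fusion had a peak near 8 of the 20 pluripotency genes (40.0%) and 7 of the 26 neural genes (26.9%), on both sides of the 35.5% of all protein-coding genes. The pluripotency genes were LIN28A, PRDM14, CRIPTO, FOXD3, NODAL, JARID2, ZSCAN10 and GDF3. The peak at the GDF3 start is the one also counted for NANOG among the members. Only JARID2, a partner of Polycomb repressive complex 2, held a summit inside the gene, at chr6:15248634-15249398 with a −log10 p of 4.04 and 4.28 and an IDR of 0.428. The neural genes were SOX1, MSI1, NOTCH1, GLI3, NEUROG2, ZIC1 and VAX1. NOTCH1, a receptor that maintains neural progenitors, had 1 summit inside the gene and another 336 bp before its annotated start, at chr9:136546002-136546564, with a −log10 p of 3.29 and 16.1 and an IDR of 0.215. GLI3, an effector of hedgehog signalling, held a summit of strength 3.20 and an IDR of 0.709.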

How the data were processed

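Peak lists of 8 factor groups were used: 1 combined list per group and 2 lists of the first replicate. Of 14 deposited files, 4 were copies. The submitters' processing notes name hg38, FastQC 0.10.1, Trim Galore, Bowtie2 2.4.4, SAMtools 0.1.18, MACS2 and deepTools 2.4.1, with no roles; the IDR limits are not given in the sources used here. The combined lists have the layout of the IDR program, and the deposited score is 125 times −log2 of the IDR. The authors' −log10 p-value of each replicate and, in the first-replicate lists, the authors' fold enrichment (a ratio) and −log10 p and q-value per peak were used only to rank, filter and describe peaks. The columns carry no replicate number, and the fold column of the combined lists holds a placeholder. Depth is unknown, so p and q are not comparable between lists. The treatment labels give doxycycline in ng/ml and the extraction protocol in ng/ul; this was not resolved.

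Strength was the lower of both −log10 p, with ties ordered by position. Genes came from RefSeq (GRCh38.p14, no strand or exons), and all 10 members and 46 network genes were matched. A gene had a peak when a summit lay within 100 kb of its span; peaks overlapped when they shared at least 1 bp. The background was the share of protein-coding genes by the same rule. Intervals are Wilson or exact Poisson at 95% and cover counting error over peaks only. Motifs were ACAANG, ATGCNAAT, TTGTNATGC and TGTTTNC on both strands. Scripts (Python 3.11.15, numpy 2.4.6, pandas 2.3.3, scipy 1.17.1) were tested on simulated data. All members were named, with every SOX2 or fusion peak near them in the combined lists, the strongest FOXA peak near each, network genes with a SOX2 or fusion peak, and network genes sharing a member's pattern, some of which are not reported here; first-replicate peaks and single FOXA sites were picked after their values were seen. The members and lists were chosen with earlier results of these data known. Alternatives were stricter IDR, p or q limits, other windows and overlaps, equal list lengths, all annotated genes, and the nearest gene; the q limit, the nearest gene and leaving out the POU5F1 window were chosen after seeing the data.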

Additional observations from a re-analysis of the deposited data

How the results depend on the processing

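No paired analysis was possible because each group has 1 combined list. Lists of a single replicate were available only for SOX2 and the fusion. These had 2 and 7 members with a peak (background 42.1% and 79.3%) against 0 and 3 in the combined lists (background 1.46% and 35.5%). They are separate, longer and less strict lists, so the counts do not measure the effect of leaving out a replicate. Of 142 alternative values of 37 results, 90 stayed within their counting interval or within 1.5 times the count, and 52 moved. For SOX2 all alternatives but 1 only remove peaks, so its 0 there is no sign of stability; counting any base of a peak also gave 0. Counts of members with a peak are given as alternative against the reported count. At an IDR of at most 0.01 the fusion had 0 (3), FOXA1 full length 3 (8) and FOXA2 CTD-deleted 3 (9), with the background at 0.100%, 21.9% and 34.2%; FOXA2 full length has no peak at that limit, so no density was computed. At a p of at most 1e-05 the counts were fusion 0, FOXA1 full length 5 (background 49.6%), FOXA2 full length 2 (18.2%), FOXA2 CTD-deleted 3 (41.8%), SOX2 first replicate 0 (8.66%) and fusion first replicate 3 (27.3%). With the 1375 strongest peaks of each list, FOXA1 full length had 2 (background 10.2%), FOXA2 CTD-deleted 1 (9.35%), and FOXA1 CTD-deleted, FOXA2 full length, both FOXA3 lists, the fusion and both first replicates 0 (3.43% to 9.36%). A 50 kb window gave 2 for each FOXA3 list (background 24.2% and 27.3%), and without shared rows FOXA3 full length had 0 (2.28%).

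Where the member had to be the nearest protein-coding gene, an alternative added after seeing the data, the fusion had 0 (background by the same rule 15.3%), FOXA3 full length 0 (14.8%), FOXA3 CTD-deleted 0 (16.8%), SOX2 first replicate 1 (21.0%), fusion first replicate 3 (45.0%), FOXA1 full length 4 (47.3%), FOXA2 CTD-deleted 4 (52.6%) and FOXA2 full length 5 (50.4%). A q of at most 0.05, also added, gave 0 for SOX2 first replicate (background 6.96%) and 3 for the fusion's (33.4%). Peak density relative to the list moved to 0 for the fusion at an IDR of at most 0.01, at a p of at most 1e-05 and among the 1375 strongest peaks, to 0 for the SOX2 first replicate at that p and among the strongest, and among the strongest to 2.99 for FOXA1 full length and to 0 for FOXA1 CTD-deleted, FOXA2 full length, both FOXA3 lists and the fusion first replicate. The stricter IDR limit moved the FOXA1 overlaps to 70.0% and 25.0%, and a 50 kb window moved the share of FOXA2 CTD-deleted peaks overlapped by full length to 71.4%; a stricter limit left no fusion peak near a member to compare with SOX2. Counting all annotated genes moved 7 of the 10 backgrounds, to 31.1% for the fusion, 31.0% and 35.1% for FOXA3, and 78.6% to 85.0% for the others.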
